A study of Mus musculus with 9 samples.

Results

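Ionotropic and metabotropic glutamate receptor genes were followed in the striatum of 9 male C57BL/6J mice aged 56 days. The set holds 10 genes: the AMPA receptor subunits Gria1, Gria2, Gria3 and Gria4, the NMDA receptor subunits Grin1, Grin2a and Grin2b, the kainate receptor subunit Grik5, and the metabotropic receptors Grm3 and Grm5. Members were all probe sets whose only annotated symbol was 1 of these, a probe set being a group of short oligonucleotides summarised into 1 signal. Of the 10 genes, 7 had such a probe set, with 10 probe sets among them, out of 12393 genes and 20380 probe sets with a single symbol. Grin1, Grm3 and Grm5 had no probe set listed under their symbol in the annotation and were not analysed here. Total RNA from left and right striatum was hybridised to Affymetrix arrays for the mouse, in 1 colour and with a separate array for each animal. The 3 groups were mice injected with methamphetamine (METH), mice injected with MPTP and saline-injected mice (Control), with 3 arrays each, described as biological replicates. METH is a psychostimulant that empties dopamine from nerve terminals, and MPTP gives rise in brain tissue to a compound that dopamine neurons take up and that poisons them. Both agents model Parkinson's disease, and neither doses nor the time from injection to dissection are given in the sources used here.

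Glutamate carries the excitatory input from cortex and thalamus to the striatum. AMPA receptors are tetramers of Gria subunits and carry the fast current, and the Gria2 subunit makes them nearly impermeable to calcium. NMDA receptors combine the obligatory Grin1 subunit with Grin2 subunits and admit calcium when glutamate binds during depolarisation. Grik5 encodes a kainate receptor subunit that needs a partner of another kainate subunit class to form a channel. Metabotropic receptors such as Grm5 and Grm3 signal through G proteins. Most neurons of the striatum are GABA-releasing spiny projection neurons, which receive this glutamate input beside dopamine.

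No glutamate receptor probe set passed the test in any comparison. The 9 of 10 member probe sets that passed the filter on low signal, a mean log2 value of at least 9.53 (a signal of 741.3), were tested with limma among 13584 probe sets, with the threshold set at a Benjamini-Hochberg adjusted p of 0.05. In METH against Control 0 of 9 passed, where 0.0147% of all probe sets did, and 0 of 9 had an unadjusted p under 0.05, where 8.77% of all did (5.77% higher and 3% lower in METH). In MPTP against Control 0 of 9 passed, where 0.0147% of all did, and 1 of 9, Grik5, had an unadjusted p under 0.05, where 5.52% of all did (3.7% higher and 1.82% lower in MPTP). In METH against MPTP 0 of 9 passed, where 0% of all did, and 0 of 9 had an unadjusted p under 0.05, where 2.8% of all did (1.74% higher and 1.06% lower in METH). The probe sets past the test in both toxin comparisons were 2 of Gfap, an astrocyte filament gene. For 3 receptor genes a probe set had toxin arrays lying wholly on one side of the Control arrays. Gria2 was lower in METH, Gria4 was higher in METH, and Grik5 was lower in MPTP. Groups separated in this way for 2 of 9 members in METH against Control, where 13.7% of all probe sets did, and for 1 of 9 in MPTP against Control, where 11.1% did (4.92% lower and 6.21% higher in MPTP). In METH against MPTP they separated for 2 of 9, both of Gria2, where 7.25% of all did. The plot of signals by array shows these beside the members whose groups overlapped.

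**Figure D1:**
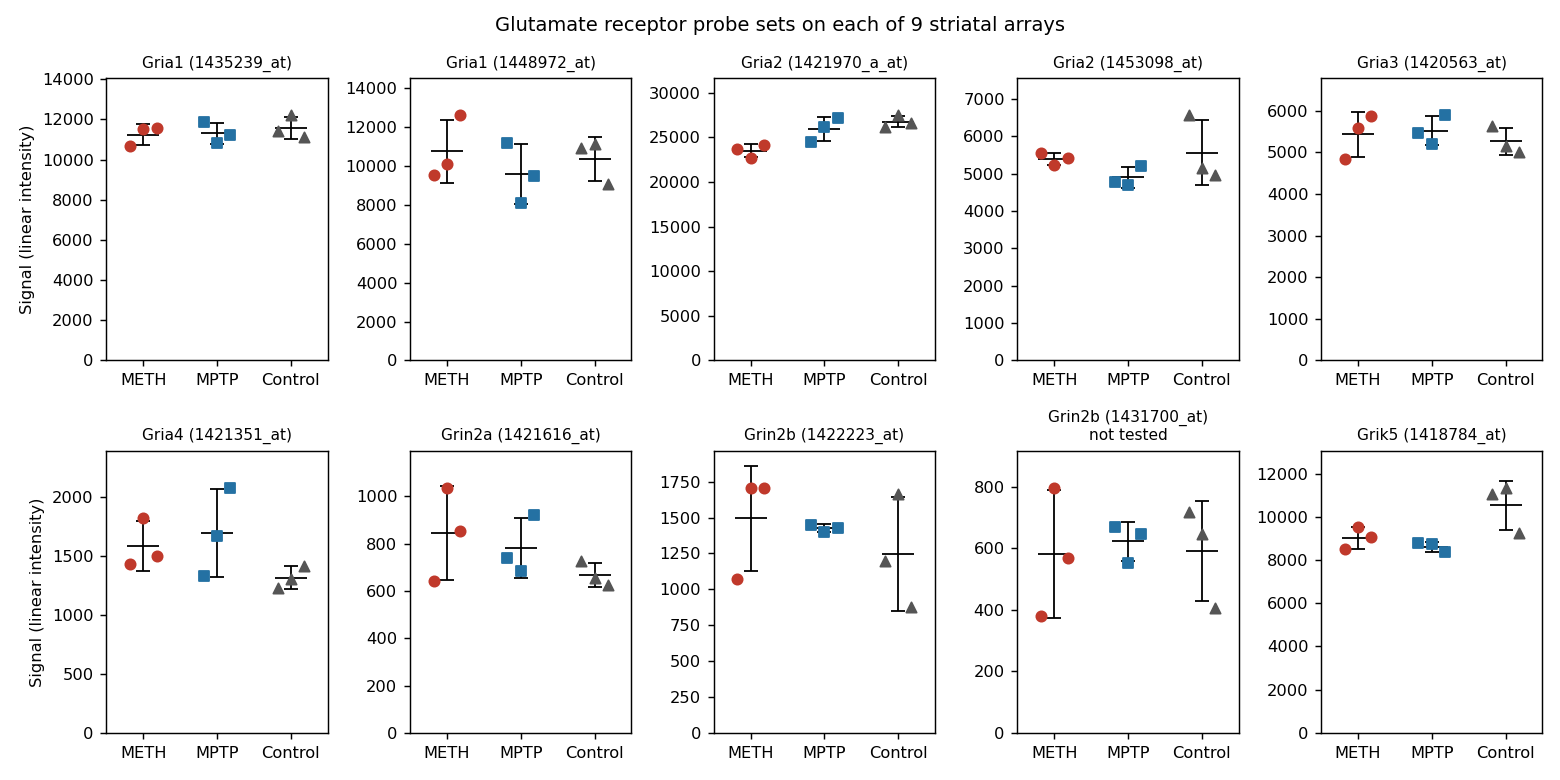
Signal (linear intensity, axes starting at 0) of the 10 glutamate receptor probe sets on each array, in METH, MPTP and Control, with 1 panel per probe set. Points are single arrays, horizontal bars are means and whiskers are 1 SD (n = 3). Gria2 (1421970_a_at) lies between 22701 and 24105 in METH, below all 3 Control arrays, and Grik5 lies between 8359 and 8780 in MPTP, below all 3 Control arrays.

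The stretch of 250 bases before the annotated transcription start is shown for Gria2, Gria4 and Grik5. These 3 are the members with a probe set for which such a stretch was available. The sequences are from RefSeq, build GRCm38.p6, and all lie on the minus strand, written 5′ to 3′ on the strand of the gene. Capitals mark GGGCGG, the core of the Sp1 box, which occurred in 1 of the 3.
Gria2, chr3:80802836-80803085, minus strand: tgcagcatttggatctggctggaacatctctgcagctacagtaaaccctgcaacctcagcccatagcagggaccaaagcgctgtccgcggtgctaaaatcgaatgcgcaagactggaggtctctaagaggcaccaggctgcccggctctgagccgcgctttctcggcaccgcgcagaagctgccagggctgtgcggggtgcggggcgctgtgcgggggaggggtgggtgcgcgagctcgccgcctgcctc
Gria4, chr9:4796235-4796484, minus strand: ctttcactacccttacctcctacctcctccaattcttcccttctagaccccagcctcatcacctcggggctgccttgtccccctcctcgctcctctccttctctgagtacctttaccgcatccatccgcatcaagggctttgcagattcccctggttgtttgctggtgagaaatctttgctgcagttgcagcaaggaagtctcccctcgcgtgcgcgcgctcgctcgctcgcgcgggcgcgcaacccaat
Grik5, chr7:25072370-25072619, minus strand: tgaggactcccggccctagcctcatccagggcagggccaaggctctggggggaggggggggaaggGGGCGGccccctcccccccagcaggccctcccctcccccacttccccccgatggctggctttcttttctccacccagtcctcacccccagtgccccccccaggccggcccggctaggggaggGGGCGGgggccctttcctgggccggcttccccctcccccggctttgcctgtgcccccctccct

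The Gria4 start site is the outer end of the annotated gene, whereas those of Gria2 and Grik5 lie 1392 and 3325 bases inside it. The Grik5 window was 75.2% G and C, more than in 96.1% of the 32851 windows of the same length in the table, and the Gria2 and Gria4 windows were 64.8% and 58.8%. The Sp1 core GGGCGG, searched on both strands, occurred 2 times in the Grik5 window, 185 and 63 bases before the start, and in 32.7% of all windows. The E box CANNTG occurred 1 time each in the Gria2 and Gria4 windows, and in 66.2% of all windows. The cAMP response element TGACGTCA and the TATA box TATAAA had no match in the 3 windows, and were in 1.55% and 12.4% of all windows. These matches describe the letters only, and the arrays measured no binding. For Gria1, Gria3, Grin2a and Grin2b no such stretch was available, and they are named only.

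Gria2, whose product sets the calcium permeability of AMPA receptors, had 2 probe sets that did not move together. For 1421970_a_at the signals were 23742, 22701 and 24105 in METH, 24433, 26172 and 27167 in MPTP, and 26192, 27470 and 26607 in Control. The METH arrays lay below every MPTP and every Control array, and the MPTP arrays overlapped with Control. Means were 23516 ± 729 in METH, 25924 ± 1384 in MPTP and 26756 ± 652 in Control (SD, n = 3 each). METH against Control gave a log2 fold change of -0.19 ± 0.09 (SE), a 95% interval of -0.38 to 0.01, with limma adjusted p = 0.578. Separation downwards as seen here occurred in 6.73% of all probe sets in that comparison, and among the 9 members in 1. Against MPTP the METH arrays gave -0.14 ± 0.09 (adjusted p = 1), and separation downwards there occurred in 3.55% of all probe sets and in 1 of 9 members. MPTP against Control gave -0.05 ± 0.09 (adjusted p = 0.966).

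The other Gria2 probe set, 1453098_at, ranked the groups differently. Its signals were 5550, 5223 and 5413 in METH, 4787, 4688 and 5214 in MPTP, and 6562, 5159 and 4971 in Control. All METH arrays lay above all MPTP arrays, which happened for 3.7% of all probe sets and for 1 of 9 members, while both toxin groups overlapped with Control, where Control 1 stood above the other arrays. The log2 fold changes were -0.03 ± 0.12 in METH against Control (limma adjusted p = 0.945), -0.17 ± 0.12 in MPTP against Control (0.898) and 0.14 ± 0.12 in METH against MPTP (1). Without Control 1 the first of these was 0.09. Across the 9 arrays the log2 signals of the 2 Gria2 probe sets had a Pearson r of -0.04 and a Spearman rho of -0.30, as a description of arrays that share group and scaling. No value here says which probe set follows the transcript more closely, and the lower METH signal rests on 1 of them.

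Gria1, the AMPA subunit closely tied to activity-dependent synaptic strengthening, had overlapping groups in both of its probe sets. Probe set 1435239_at gave 10654, 11500 and 11562 in METH, 11855, 10830 and 11235 in MPTP, and 11424, 12205 and 11144 in Control. The arrays of a group lay close together, and the coefficients of variation were 4.51% in METH, 4.57% in MPTP and 4.74% in Control. The log2 fold change was -0.04 ± 0.09 in METH against Control, with a 95% interval of -0.24 to 0.15, that is a fold of 0.845 to 1.113. In MPTP against Control it was -0.04 ± 0.09, with an interval of -0.23 to 0.16. The limma adjusted p-values were 0.908 and 0.977.

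The other Gria1 probe set, 1448972_at, varied more among arrays of a group. It gave 9543, 10129 and 12624 in METH, 11184, 8127 and 9495 in MPTP, and 10948, 11134 and 9087 in Control. METH 3 was the highest array and MPTP 2 the lowest, and no group stood apart. Its log2 fold changes were 0.05 ± 0.15 in METH against Control (limma adjusted p = 0.94), -0.12 ± 0.15 in MPTP against Control (0.947) and 0.17 ± 0.15 in METH against MPTP (1). The METH value was -0.05 without Control 3, -0.07 without METH 3 and -0.02 with arrays centred on their medians. The 2 Gria1 probe sets varied together, with a Pearson r of 0.72 and a Spearman rho of 0.82 over 9 arrays, and an r of 0.85 over 7 arrays after leaving out the 2 farthest from the median.

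Gria3 (1420563_at), another AMPA subunit, gave 4840, 5578 and 5882 in METH, 5459, 5212 and 5894 in MPTP, and 5634, 5148 and 5022 in Control. The groups overlapped. The log2 fold change was 0.04 ± 0.11 in METH against Control, with an interval of -0.19 to 0.28 (limma adjusted p = 0.924), and 0.07 ± 0.11 in MPTP against Control, with an interval of -0.17 to 0.30 (0.965). The METH value was -0.02 with arrays centred on their medians and without METH 3.

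Gria4, an AMPA subunit with rapid gating that interneurons and glial precursors also use, was the member with the highest log2 fold change after MPTP. The signals of its probe set, 1421351_at, were 1436, 1825 and 1500 in METH, 1334, 1669 and 2083 in MPTP, and 1227, 1306 and 1420 in Control. Each METH array was above each Control array, by 1436 against 1420 at the nearest pair, and MPTP 1 lay inside the Control range. Separation upwards in METH against Control occurred in 6.96% of all probe sets and in 1 of 9 members. Means with SD were 1587 ± 209 in METH, 1695 ± 375 in MPTP and 1318 ± 97 in Control (n = 3 each). It had a log2 fold change of 0.26 ± 0.16 in METH against Control (interval -0.10 to 0.62, limma adjusted p = 0.677) and 0.34 ± 0.16 in MPTP against Control (interval -0.02 to 0.70, adjusted p = 0.875). Single arrays carried much of it. Without METH 2 the METH value was 0.16, and without MPTP 3 the MPTP value was 0.18, while without MPTP 1 it was 0.50, with an unadjusted p of 0.00806 from limma and an adjusted p of 0.748. Between the toxins the difference was -0.08 ± 0.16 (adjusted p = 1), and it was 0.08 without MPTP 3.

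NMDA receptor subunits were measured with dim probe sets and wide intervals. Grin2a, the subunit that predominates in the adult forebrain, gave with 1421616_at 643, 1037 and 855 in METH, 740, 683 and 922 in MPTP, and 725, 653 and 627 in Control. The groups overlapped, and METH 1 was inside the Control range. Its mean log2 value of 9.56 was just above the filter, and it was the tested member nearest to it. The log2 fold changes were 0.31 ± 0.17 in METH against Control (interval -0.08 to 0.70, limma adjusted p = 0.643) and 0.22 ± 0.17 in MPTP against Control (interval -0.17 to 0.61, adjusted p = 0.917). Leaving out 1 array at a time gave METH values of 0.27 to 0.50 in the 6 settings that kept Grin2a above the filter. The highest was without METH 1. Without METH 2, its highest array, Grin2a fell under the filter and was not tested.

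Grin2b, the subunit prominent in early development and in striatal projection neurons, had a tested probe set, 1422223_at. It gave 1072, 1708 and 1704 in METH, 1451, 1400 and 1429 in MPTP, and 1197, 1663 and 876 in Control. All MPTP arrays lay inside the Control range, METH 2 and METH 3 lay just above it, and the Control arrays varied more than those of the other members, with a coefficient of variation of 31.8%. The log2 fold change was 0.28 ± 0.23 in METH against Control (interval -0.24 to 0.80, limma adjusted p = 0.746) and 0.25 ± 0.23 in MPTP against Control (interval -0.28 to 0.77, adjusted p = 0.94). Leaving out 1 array at a time gave 0.05 to 0.51 for METH and 0.02 to 0.48 for MPTP, with the lowest values without Control 3 and the highest without Control 2. The other Grin2b probe set, 1431700_at, was below the filter, with a mean log2 value of 9.19. Its signals were 380, 797 and 567 in METH, 669, 551 and 646 in MPTP, and 718, 646 and 407 in Control, and the groups overlapped. It was the member just outside the filter and was not tested. Over 9 arrays the 2 Grin2b probe sets had a Pearson r of 0.73 and a Spearman rho of 0.58. Without the 2 arrays farthest from the median of 1422223_at, r was -0.03 over 7 arrays.

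Grik5, the kainate receptor subunit, had the lowest log2 fold change of the set after MPTP. The signals of its probe set, 1418784_at, were 8495, 9514 and 9054 in METH, 8780, 8735 and 8359 in MPTP, and 11038, 11352 and 9238 in Control. All MPTP arrays lay below all Control arrays, and METH 2 lay above Control 3, so that METH and Control overlapped. Means were 9021 ± 510 in METH, 8625 ± 231 in MPTP and 10543 ± 1140 in Control (SD, n = 3 each). In MPTP against Control the log2 fold change was -0.28 ± 0.10, with a 95% interval of -0.52 to -0.05 and an unadjusted p of 0.0208 from limma, which became 0.875 after adjustment over all 13584 probe sets. Unadjusted p-values under 0.05 with a lower signal occurred in 1.82% of all probe sets in that comparison and in 1 of 9 members, and separation downwards in 4.92% of all and in 1 of 9. In METH against Control it was -0.22 ± 0.10 (interval -0.45 to 0.01, adjusted p = 0.592), and between METH and MPTP it was 0.06 ± 0.10 (interval -0.17 to 0.29, adjusted p = 1). The Grik5 comparisons against Control share the same 3 Control arrays, among which Control 3 was the lowest. Without Control 3 the values were -0.31 in METH and -0.38 in MPTP, and without Control 2 they were -0.16 and -0.23.

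**Figure D2:**
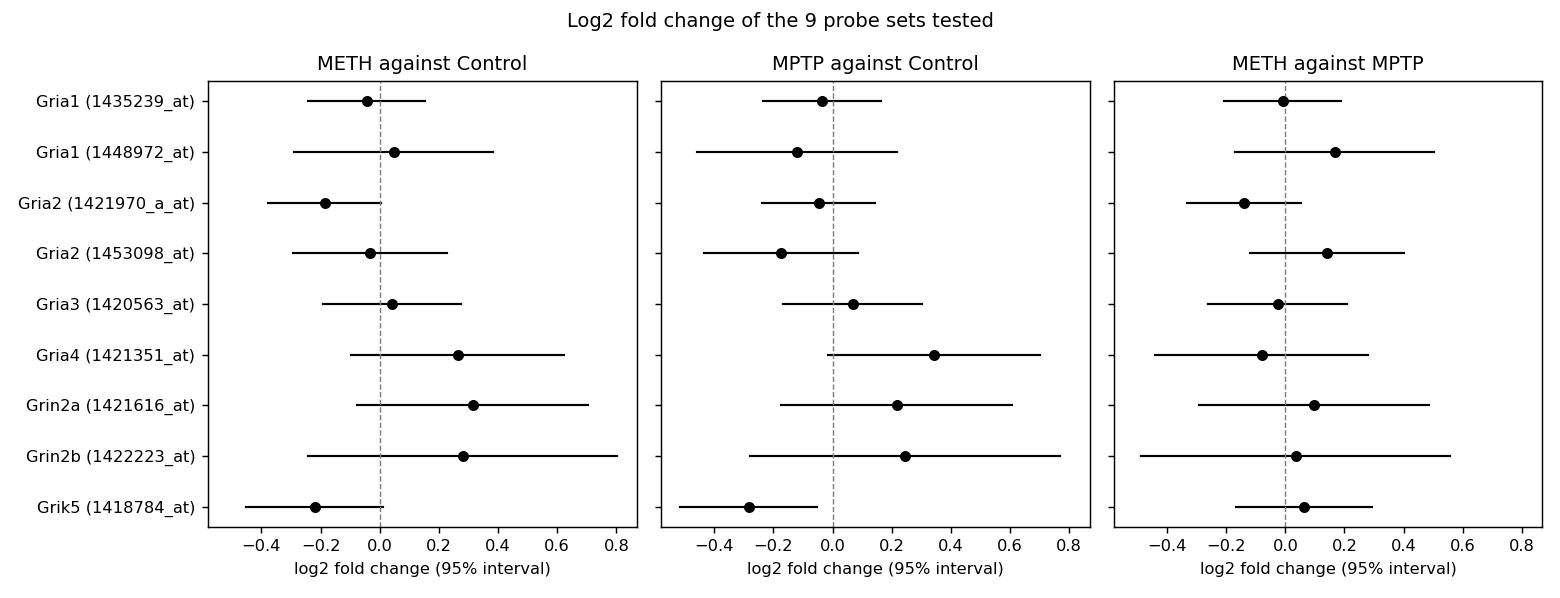
Log2 fold change (points) and its 95% interval from limma (lines) for the 9 tested glutamate receptor probe sets, in METH against Control, MPTP against Control and METH against MPTP. The dashed line marks 0, and of the 27 intervals 1 lies wholly on one side of it, that of Grik5 in MPTP against Control, at -0.52 to -0.05.

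Over the 9 tested probe sets the median log2 fold change was 0.04 in METH against Control, with 5 above 0 and 4 below, beside 0.01 over all 13584 probe sets. In MPTP against Control it was -0.04, with 4 above and 5 below, beside 0.01 over all. In METH against MPTP it was 0.03, beside 0.00 over all. Brightness did not order the values throughout. With all probe sets ranked from dim to bright in 10 deciles of mean signal, Grik5 and Gria2 (1421970_a_at) were in decile 10 and had the lowest values after METH, but both Gria1 probe sets, also in decile 10, had -0.04 and 0.05. Gria4, Grin2a and Grin2b were in deciles 5 and 6 and had the highest values after both toxins. After MPTP, Gria2 in decile 10 had -0.05, against -0.17 for its other probe set in decile 9. All probe sets together showed a smaller gradient of the same kind. After METH the median was 0.09 in decile 5, 0.05 in decile 6 and -0.05 in decile 10, and after MPTP it was 0.07, 0.03 and -0.03. The part of this gradient in the members' values was not tested. The array medians were 1127 to 1233 in METH and 1128 to 1178 in MPTP, against 1111 to 1127 in Control. METH 2, the array with the highest median, also had the narrowest range, 6.24 log2 units between the 10th and 90th percentiles, and the highest Gria4 and Grin2a signals of the METH arrays. With quantile normalization, which gives all arrays 1 distribution, Gria2 (1421970_a_at) gave -0.12 and Grik5 -0.18 in METH against Control. Both were further from 0 with arrays centred on their medians, at -0.25 for Gria2 (unadjusted p = 0.0293 and adjusted p = 0.554 from limma) and -0.28 for Grik5 (0.0243 and 0.549). In METH against Control each of them had an unadjusted p under 0.05 in 4 of 21 alternatives, and neither passed the test in any. For MPTP against Control, quantile normalization gave 0.00 for Gria2, -0.26 for Grik5 and 0.31 for Gria4.

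**Figure D3:**
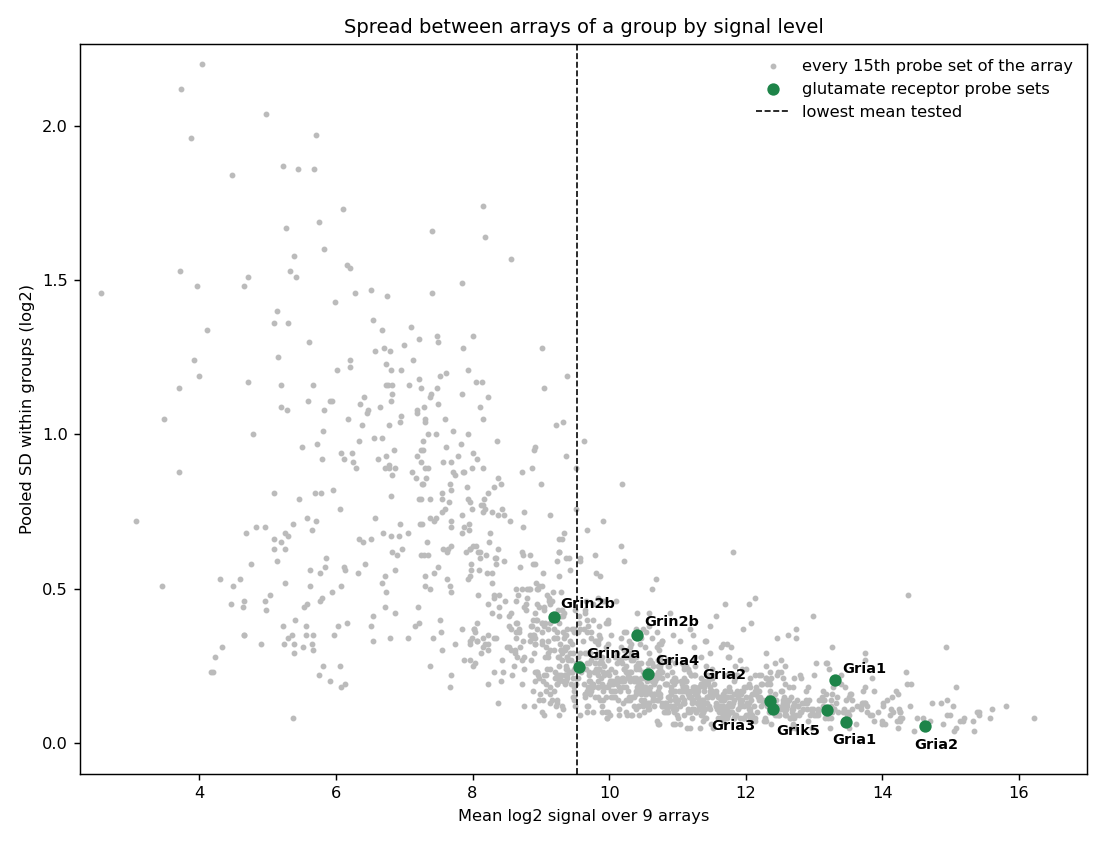
Pooled SD within groups (log2) against mean log2 signal over the 9 arrays, for every 15th probe set of the array (grey) and for the 10 glutamate receptor probe sets (green), with the filter as a dashed line. The spread of Grin2b (1422223_at), 0.35, exceeds the median of its decile, 0.20, and the spread of the brightest Gria2 probe set, 0.06, lies below the median of its decile, 0.11.

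The spread of the members followed their signal only in part. Over the whole array the median of this spread was 0.24 log2 units in decile 5 and 0.11 in decile 10. Within groups Grin2a had an SD of 0.25 log2 units, Gria4 0.22 and Grin2b (1422223_at) 0.35, whereas Grik5 had 0.11 and Gria1 (1435239_at) 0.07. Gria1 (1448972_at) had 0.20 in decile 10, above Gria3 with 0.11 and Gria2 (1453098_at) with 0.14 in decile 9, and Grin2b had a wider spread than the dimmer Grin2a. Intervals for the NMDA subunits allowed folds of up to 1.75 for Grin2b and 1.63 for Grin2a in METH against Control.

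Other genes of the glutamate synapse gave no gene past the test either. Of 10 further ionotropic subunits 7 had a probe set and 3 passed the filter, Grin2c, Grid1 and Grik2, with log2 fold changes of 0.11 to 0.18 after METH and 0.02 to 0.29 after MPTP. Grin2c, an NMDA subunit, had 0.18 ± 0.13 after METH and 0.13 ± 0.13 after MPTP. Grid1, a delta-class subunit, had 0.11 ± 0.19 and 0.29 ± 0.19. Of 6 further metabotropic receptors 1, Grm8, had a probe set, and it was below the filter.

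Receptor auxiliary proteins, which traffic ionotropic glutamate receptors or tune their gating or clustering, were mostly on the lower side. Of 12 tested 10 lay below 0 after METH, with a median of -0.11, and 8 after MPTP, with a median of -0.14, beside 0.01 over all probe sets in both. None passed the test in limma, and 1 of 12 after each toxin had an unadjusted p under 0.05, lower in both. Over all probe sets 3% were lower at that threshold after METH and 1.82% after MPTP. Cacng2, which encodes the AMPA receptor partner stargazin, had signals of 2500 ± 444 in METH, 2276 ± 271 in MPTP and 2861 ± 144 in Control. Its log2 fold changes were -0.21 ± 0.14 after METH (adjusted p = 0.691) and -0.34 ± 0.14 after MPTP (0.875). All its MPTP arrays lay below Control, as in 4.92% of all probe sets. Olfm1, a secreted protein found with AMPA receptors, had -0.45 ± 0.20 after METH (adjusted p = 0.567) and -0.38 ± 0.20 after MPTP (0.875), with overlapping groups. The summed signal of the 12 was 50100 to 57931 in METH and 50088 to 53556 in MPTP, against 57138 to 60728 in Control. The MPTP sums lay below the Control sums, and the METH sums overlapped with them.

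Postsynaptic scaffolds, which anchor the receptors, had medians of -0.02 after METH and -0.01 after MPTP over 15 genes. In each comparison 7 lay above 0 and 8 below. Of the 15, 0 after METH and 1 after MPTP had an unadjusted p under 0.05, where 8.77% and 5.52% of all probe sets did. Dlgap4, a scaffold gene, had -0.27 ± 0.14 and -0.36 ± 0.14 (limma adjusted p = 0.619 and 0.875), and Homer3, whose family links group I metabotropic receptors to calcium stores, had 0.33 ± 0.17 and 0.20 ± 0.17 (0.619 and 0.928). Signalling enzymes had medians of -0.10 and -0.03 over 16 genes, of which 1 after METH and 2 after MPTP had an unadjusted p under 0.05, all higher. Over all probe sets 5.77% were higher at that threshold after METH and 3.7% after MPTP. Gnaq, a G protein subunit through which group I metabotropic receptors act, had signals of 1132 ± 144 in METH, 1233 ± 167 in MPTP and 833 ± 123 in Control. Its Control mean was close to the filter of 741.3. Its log2 fold changes were 0.45 ± 0.15 and 0.57 ± 0.15 (adjusted p = 0.512 and 0.766), and all arrays of either toxin group lay above all Control arrays. Separation upwards occurred in 6.96% of all probe sets after METH and 6.21% after MPTP, and both comparisons share the same 3 Control arrays. Gna11, another G protein subunit of the list, was brighter, at 6205 ± 266 in METH, 6447 ± 646 in MPTP and 6497 ± 1027 in Control. Its log2 fold changes were -0.05 ± 0.13 and -0.003 ± 0.13. Prkca, a protein kinase C, had 0.22 ± 0.11 and 0.26 ± 0.11 (0.609 and 0.875).

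Glutamate uptake, vesicle loading and metabolism genes had medians of 0.01 after METH and 0.03 after MPTP over 11 genes. After either toxin 0 of the 11 had an unadjusted p under 0.05, where 8.77% and 5.52% of all probe sets did. Slc1a3, a glial glutamate transporter, had -0.30 ± 0.20 and -0.21 ± 0.20 (limma adjusted p = 0.697 and 0.94), and Glud1, a glutamate dehydrogenase, had 0.14 ± 0.10 and 0.11 ± 0.10 (0.712 and 0.936). Activity-regulated synaptic genes, which glutamate receptor activation can induce, had a median of 0.00 after METH over 11 genes and of -0.27 after MPTP, with 9 of 11 below 0. Unadjusted p-values under 0.05 were reached by 1 of 11 after METH and 2 of 11 after MPTP, all lower. Over all probe sets 3% were lower at that threshold after METH and 1.82% after MPTP, and the median was 0.01 after both. Fos had signals of 4910 ± 278 in METH, 4037 ± 119 in MPTP and 5805 ± 998 in Control, and Dusp1 had 5494 ± 694, 4872 ± 156 and 7216 ± 500. Their log2 fold changes in METH against Control were -0.23 ± 0.13 and -0.40 ± 0.11 (limma adjusted p = 0.648 and 0.451). In MPTP against Control they were -0.51 ± 0.13 and -0.56 ± 0.11 (adjusted p = 0.766 and 0.594). All Dusp1 arrays of either toxin group lay below the Control arrays, which both comparisons share. Such separation downwards occurred in 6.73% of all probe sets after METH and 4.92% after MPTP.

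**Figure D4:**
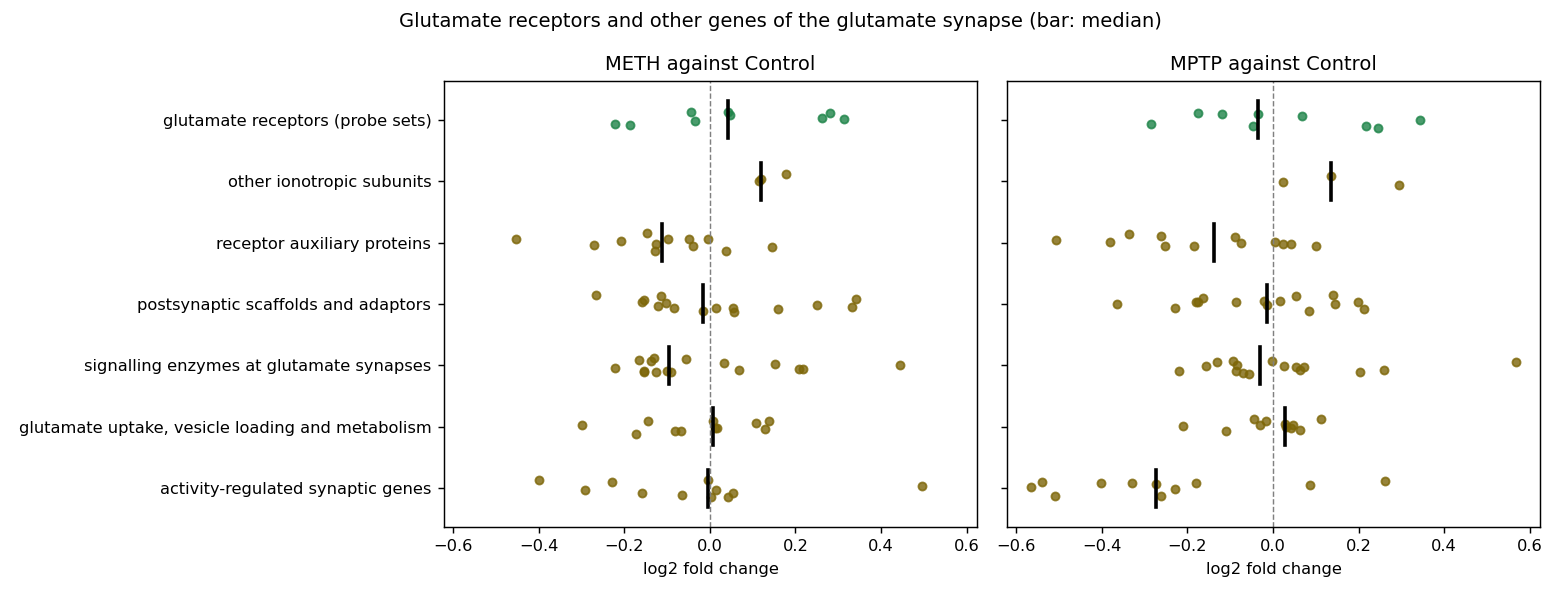
Log2 fold change of the 9 tested glutamate receptor probe sets (green) and of other tested glutamate synapse genes by list (brown), in METH against Control and MPTP against Control, with bars at the medians. Receptors lie on both sides of 0, and the activity-regulated genes have a median of -0.27 after MPTP.

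Markers of the labelled tissue were present. All 10 spiny projection neuron markers with a probe set passed the filter, and their summed signal was 229404 to 245780 in METH and 212434 to 246704 in MPTP, against 236237 to 263503 in Control. Of the genes listed as cortical glutamatergic markers, 3 of 5 with a probe set passed the filter, Neurod1, Neurod2 and Lamp5. Neurod6 and Tbr1 did not, and a signal under the filter does not show that cortical tissue was absent. The 5 summed to 9559 to 11594 in METH and 10510 to 11321 in MPTP, against 11265 to 13618 in Control. Most of this was Lamp5, at 8029 ± 491 in METH, 8546 ± 238 in MPTP and 9064 ± 253 in Control. All its arrays in either toxin group lay below Control, as in 6.73% of all probe sets after METH and 4.92% after MPTP. Which cells gave the Lamp5 signal was not tested, so the sum of the 5 is not a measure of cortical tissue. Among glia, summed astrocyte and microglia markers were higher after both toxins and summed oligodendrocyte markers overlapped with Control. The 10 astrocyte markers summed to 100299 to 107934 in METH and 102314 to 110894 in MPTP, against 93678 to 99379 in Control, and the 12 microglia markers, of which 11 passed the filter, to 63044 to 64894 and 60033 to 64300, against 52764 to 59559. The largest part of the astrocyte sum was Aldoc, at 38902 in METH, 38778 in MPTP and 38660 in Control. Gfap was the astrocyte marker past the test. Its signals were 12286 ± 1444 in METH and 12324 ± 1152 in MPTP, against 5620 ± 733 in Control. This rise is part of the higher astrocyte sum. Slc1a2, Aldoc and Fgfr3 had log2 fold changes of 0.01, 0.01 and -0.04 after METH and -0.04, 0.00 and -0.04 after MPTP. Aqp4 had 0.28 ± 0.08 and 0.31 ± 0.08 (limma adjusted p = 0.488 and 0.766), and Slc1a3 -0.30 and -0.21. For Aqp4 all arrays of either toxin group lay above all Control arrays. Such separation upwards occurred in 6.96% of all probe sets after METH and 6.21% after MPTP. S100b and Aldh1l1 were separated upwards after MPTP only. Of the 10, 8 lay above 0 after METH and 7 after MPTP. The median of the 10 was 0.08 after METH and 0.17 after MPTP. Of the 11 microglia markers tested 0 passed, and 10 lay above 0 after METH and 11 after MPTP, with medians of 0.19 and 0.18. Unadjusted p-values under 0.05 from limma were reached by 5 and 4, all higher, where 5.77% and 3.7% of all probe sets were. The brightest, Csf1r, had 0.10 and 0.04, and Fcrls had 0.44 and 0.36. How often sums of other genes separate was not tested. The 9 oligodendrocyte markers summed to 184424 to 187845 in METH and 188127 to 205212 in MPTP, against 169901 to 192092 in Control. Singly, 5 of the 9 lay above 0 after METH and 4 below, and after MPTP all 9 lay above 0. Sox10 had 0.64 ± 0.10 and 0.34 ± 0.10 (limma adjusted p = 0.255 and 0.805). Cldn11 had 0.24 ± 0.08 and 0.28 ± 0.08 (0.529 and 0.82). Both were separated upwards from Control after either toxin. Oligodendrocyte precursor markers, whose cells also use Gria4, summed to 30356 to 31129 in METH and 29664 to 32993 in MPTP, against 28143 to 30539 in Control, with all 7 past the filter and overlapping ranges in both comparisons. Interneuron markers, with 5 of 6 past the filter, summed to 29889 to 31238 in METH and 33013 to 34586 in MPTP, against 30636 to 36546 in Control. Choroid plexus and ependyma markers, from tissue that borders the striatum, varied widely among arrays. They summed to 48256, 54473 and 11192 in METH and 36881, 5900 and 10117 in MPTP, against 69751, 37938 and 15026 in Control, with 3 of 5 past the filter. Most of this was Ttr, which encodes a thyroid hormone carrier and had -0.16 ± 0.96 after METH and -1.76 ± 0.96 after MPTP (limma adjusted p = 0.971 and 0.875). The part of these shifts in the receptor values was not tested, and in whole striatum fewer cells of a type and less RNA per cell cannot be told apart.

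Patterns most like those of the members were sought among 12500 probe sets with 1 symbol past the filter. The 2 genes nearest to Gria2 (1421970_a_at) were Eid1, with a Pearson r of 0.95 and a Spearman rho of 0.90, and Tsc22d1, with 0.93 and 0.87. Those nearest to Grin2b (1422223_at) were Dtna, with 0.95 and 0.95, and Cd4, with 0.94 and 0.93. These correlations run over 9 arrays that share groups and scaling, were the highest of many, and are given as a description. Grm5 and Grm3, which the same rule named, had no probe set.

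**Figure D5:**
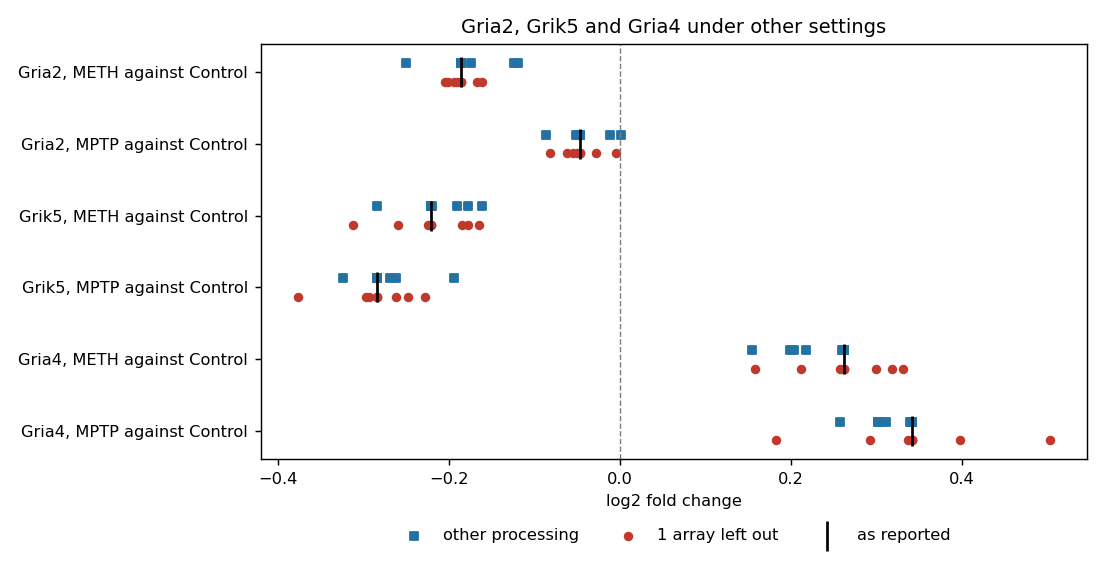
Log2 fold change of Gria2 (1421970_a_at), Grik5 and Gria4 against Control in METH and in MPTP, as reported (black bars), under other processing (blue squares) and with 1 array left out (red circles). Grik5 stays below 0 and Gria4 above 0 in every setting drawn, and Gria2 after MPTP reaches 0.00 with quantile normalization.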

How the data were processed

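Striatal RNA of 9 mice was measured on 1 array each. The authors deposited 1 linear intensity per probe set and array, with the same mean on each array, 2501, once 2% of values at both ends are trimmed. The submitters' processing notes list RMA with no version or settings, and the values do not have its usual log form, so how probe sets were summarised is unsettled. Scale was taken as linear from the values, which were not centred by gene. The array design named in the submitters' text is larger than the 22690 probe sets deposited.

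The intensities were transformed to log2 with no pseudocount and no further normalization. Probe sets under the 40th percentile of mean log2 value and 64 array controls were left out. The 3 comparisons were fitted in R 4.3.3 by limma 3.58.1 (lmFit with 1 mean per group, all 9 arrays, then eBayes), with 6 residual and 3.94 prior degrees of freedom, two-sided, Benjamini-Hochberg over all probe sets tested. Values after ± are SE for log2 fold changes and SD for signals. The smallest p that an exact permutation of 3 against 3 arrays allows is 0.1, and that test was left out. Other genes were represented by their probe set of highest mean. In the synapse lists at most 2 were given in detail by smallest p against Control, and Gna11 was added beside Gnaq. The 2 genes of highest Pearson r were named for Gria2, Grin2b, Grm5 and Grm3. The 10 member gene IDs were found in RefSeq's GRCm38.p6 table with 0 symbols changed. The members and lists were chosen with earlier results of these data known. Precision is limited by having 3 arrays a group. The code was tested on simulated data. Arrays sharing a replicate number did not deviate together (r of -0.13 to 0.05), so the numbers were not taken as pairs.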

Additional observations from a re-analysis of the deposited data

How the results depend on the processing

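The count of glutamate receptor probe sets past the test was 0 in every comparison under all 12 processing alternatives and with each of the 9 arrays left out. Signs turned only for values near 0. With quantile normalization Gria2 (1421970_a_at) was 8e-04 in MPTP against Control and Gria1 (1435239_at) 0.009 in METH against MPTP, where cyclic loess gave 0.0092. Centring arrays on their medians gave -0.0171 for Gria1 (1448972_at) and -0.0222 for Gria3 in METH against Control. With array weights Gria2 (1453098_at) was 0.0554 in METH against Control and Grin2b (1422223_at) -0.0827 in METH against MPTP. With 1 array left out, METH against Control ran from -0.1093 to 0.091 for Gria2 (1453098_at), -0.0736 to 0.1282 for Gria1 (1448972_at) and -0.0182 to 0.1224 for Gria3. MPTP against Control ran from -0.0704 to 0.002 for Gria1 (1435239_at). METH against MPTP ran from -0.0392 to 0.0294 for Gria1 (1435239_at), -0.0859 to 0.0547 for Gria3, -0.2405 to 0.0806 for Gria4 and -0.0781 to 0.258 for Grin2b (1422223_at). The member median in METH against Control ran from -0.0508 to 0.1224 with 1 array left out, in MPTP against Control from -0.0564 to 0.002 and in METH against MPTP from -0.0367 to 0.1061. In MPTP against Control it was 0.0677 with one probe set per gene, where 7 members are tested.

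Over all probe sets, the count past the test in METH against Control, 2, was 0 with arrays centred on their medians, without probe sets ending in _x_at or _s_at and with the replicate block, 1 with no filter, one probe set per gene or only the 2 groups compared, and 0 to 2 with 1 array left out. In MPTP against Control the count, 2, was 0 with arrays centred on their medians, no filter, no probe sets ending in _x_at or _s_at, only the 2 groups compared and the replicate block, 1 with one probe set per gene or array weights, and 0 to 0 with 1 array left out. The causes were not tested. With the replicate block the Grik5 value in MPTP against Control had an adjusted p of 0.903, and no receptor call changed. Signal over background was not measured here, and Grin2a was not tested in the settings that put it under the filter.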
